A study of Mus musculus with 14 samples.

Results

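Kinesins are the motor proteins that step along microtubules, and the transcripts of their genes were examined in full-grown mouse oocytes whose RNA interference pathway had been disabled at one of its steps. The members are all genes whose symbol starts with Kif or Kifc and a digit, which gave 40 of the 20638 genes in the count files. They comprise 14 kinesins known for work on the spindle, 17 known for carrying cargo and 9 known from cilia or signalling. The oocytes were germinal vesicle (GV)-intact, that is, still in prophase before meiosis resumes, and came from females of 4 to 6 weeks, on a mostly C57BL6 mixed background, that had received 5 IU of equine chorionic gonadotropin 48 h earlier. Ago2 fl/fl females carried the floxed Ago2 gene without Cre and gave the controls (3 libraries). Ago2 ADH females were Ago2 fl/ADH with Cre, so that after excision their oocytes had only the allele that makes a catalytically inactive AGO2 (3 libraries). Ago2 null females were Ago2 fl/fl with Cre (2 libraries). Cre was driven by the Zp3 promoter, which is active in growing oocytes, so transcripts made before excision can remain in the mutants. Dicer WT and Dicer KO oocytes, labelled as wild type and null for Dicer, made up the second pair of groups (3 libraries each). A library was made from 20 oocytes pooled from several mice, and p-values measure the spread between such pools.

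Most kinesins use ATP to walk towards the plus ends of microtubules, while members of the Kifc group walk towards the minus ends, and the Kif2 group does not walk but shortens microtubule ends. In a mouse oocyte the meiotic spindle forms without centrioles. KIF11 and KIF15 push its antiparallel microtubules apart, KIFC1 bundles them and focuses the poles, KIF4 and KIF22 act on chromosome arms and the midzone, KIF18A and KIF2C act at chromosomes and centromeres, and KIF23 and KIF20A work in the midzone at cytokinesis. A GV oocyte is largely silent in transcription and holds mRNA made during growth, some of which is translated only once meiosis resumes. AGO2 cleaves transcripts that pair fully with a small interfering RNA, and DICER makes both these endogenous siRNAs and microRNAs.

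The deposited values were read counts per RefSeq transcript, taken without regard to strand, and summed to between 29380403 and 58285057 per library. A count of 3 corresponded to 0.0515 to 0.102 CPM (counts per 1000000), and such floors cover counting error only. Reads with several alignments were tallied apart from transcripts. Their tally made up 33.2 to 34.6% of all tallied counts in fl/fl, 57.3 to 58.1% in ADH and 57.0 to 58.3% in null libraries. It made up 25.6 to 31.5% in WT and 44.4 to 49.5% in KO libraries. All tallied counts here are the transcript counts, the reads in no feature and this tally. A read in several transcripts was counted for each, so these are not shares of reads. The part of reads with several alignments in the results below was not tested. Ago2 stood at 24.1 to 25.6 CPM in fl/fl, 12.4 to 13.8 in ADH and 5.27 to 7.18 in null libraries. The whole-transcript count of Dicer1 was 745 to 779 CPM in WT and 1669 to 1928 in KO libraries. That count takes in exons outside the deleted stretch, so it does not check the Dicer labels. The 12 oocyte markers summed to 11595 to 18525 CPM in every library. The 15 cumulus and granulosa markers summed to 78.5 to 84.8 CPM in fl/fl, 64.1 to 70.1 in ADH, 57.3 to 60.9 in null, 96.6 to 104 in WT and 81.2 to 84.5 in KO libraries, with 9 to 11 of them under 1 CPM. Cyp19a1 and Nr5a2 made up most of the sum, at means of 33.6 and 37.4 CPM in fl/fl, 23.0 and 32.6 in ADH, 21.7 and 29.0 in null, 54.6 and 38.5 in WT and 47.7 and 28.5 in KO. Other markers went the other way, such as Inha with 0.756 CPM in fl/fl, 1.44 in ADH and 1.39 in null and Inhba with 0.396 in WT and 0.836 in KO, and the part of these cells in the results was not tested. The libraries of each Ago2 genotype were run together on 1 lane of their own, and effects of genotype and lane cannot be told apart in them. In pooled oocytes, fewer oocytes with a transcript and less of it per oocyte cannot be told apart.

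Of the 40 kinesins, 34 had enough reads to be tested in all 3 comparisons of a mutant with its control. Genes were called at a false discovery rate of 1% (edgeR's quasi-likelihood test, adjusted over all transcripts). In Ago2 ADH oocytes 9 of 34 rose and 7 fell, or 47.1% in all, where 40.9% of all genes tested were called (21% up and 19.9% down). In Ago2 null oocytes 7 of 35 rose and 8 fell, or 42.9%, against 37.3% of all genes (18.6% up and 18.7% down). In Dicer KO oocytes 7 of 34 rose and 8 fell, or 44.1%, against 34.5% of all genes (16.9% up and 17.6% down). The kinesins as a family thus lay near the background. Their median log2 fold change was -0.02 in ADH, -0.07 in null and 0.03 in KO oocytes, beside 0.01, 0.01 and 0.00 for all genes. The median size of the change, without its sign, was 0.32, 0.47 and 0.34, beside 0.35, 0.38 and 0.37 for all genes.

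Of single motors, 11 had the same call in every comparison. Kif4, Kif2c, Kifc1, Kif15, Kif13b and Kif24 rose in all 3, and Kif23, Kif18a, Kif1b, Kif5c and Kif3b fell in all 3. Among all 13310 genes tested in the 3 comparisons, 11.2% rose and 12.3% fell in each of them. The ADH and null comparisons share their fl/fl controls, so calls in these are not separate evidence. Of 13 spindle kinesins tested, 5 rose and 4 fell in ADH (69.2%), 4 rose and 3 fell in null (53.8%), and 5 rose and 4 fell in KO oocytes (69.2%). Of the transport kinesins, 3 rose and 3 fell of 15 tested in ADH (40%) and 2 rose and 3 fell of 16 in null oocytes (31.25%). In KO oocytes 1 rose and 4 fell of 15 (33.3%). The shares of all genes called were 40.9% in ADH, 37.3% in null and 34.5% in KO oocytes. Whether these short lists differ from all genes or from each other was not tested. At the 1% rate no kinesin was called up in one comparison and down in another, a count that was not made for all genes. At a threshold of 5%, Kif16b was up in ADH (log2 fold change 0.19) and down in KO oocytes (-0.29). Kif26a was then down in null (-1.25) and up in KO oocytes (1.29).

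**Figure D1:**
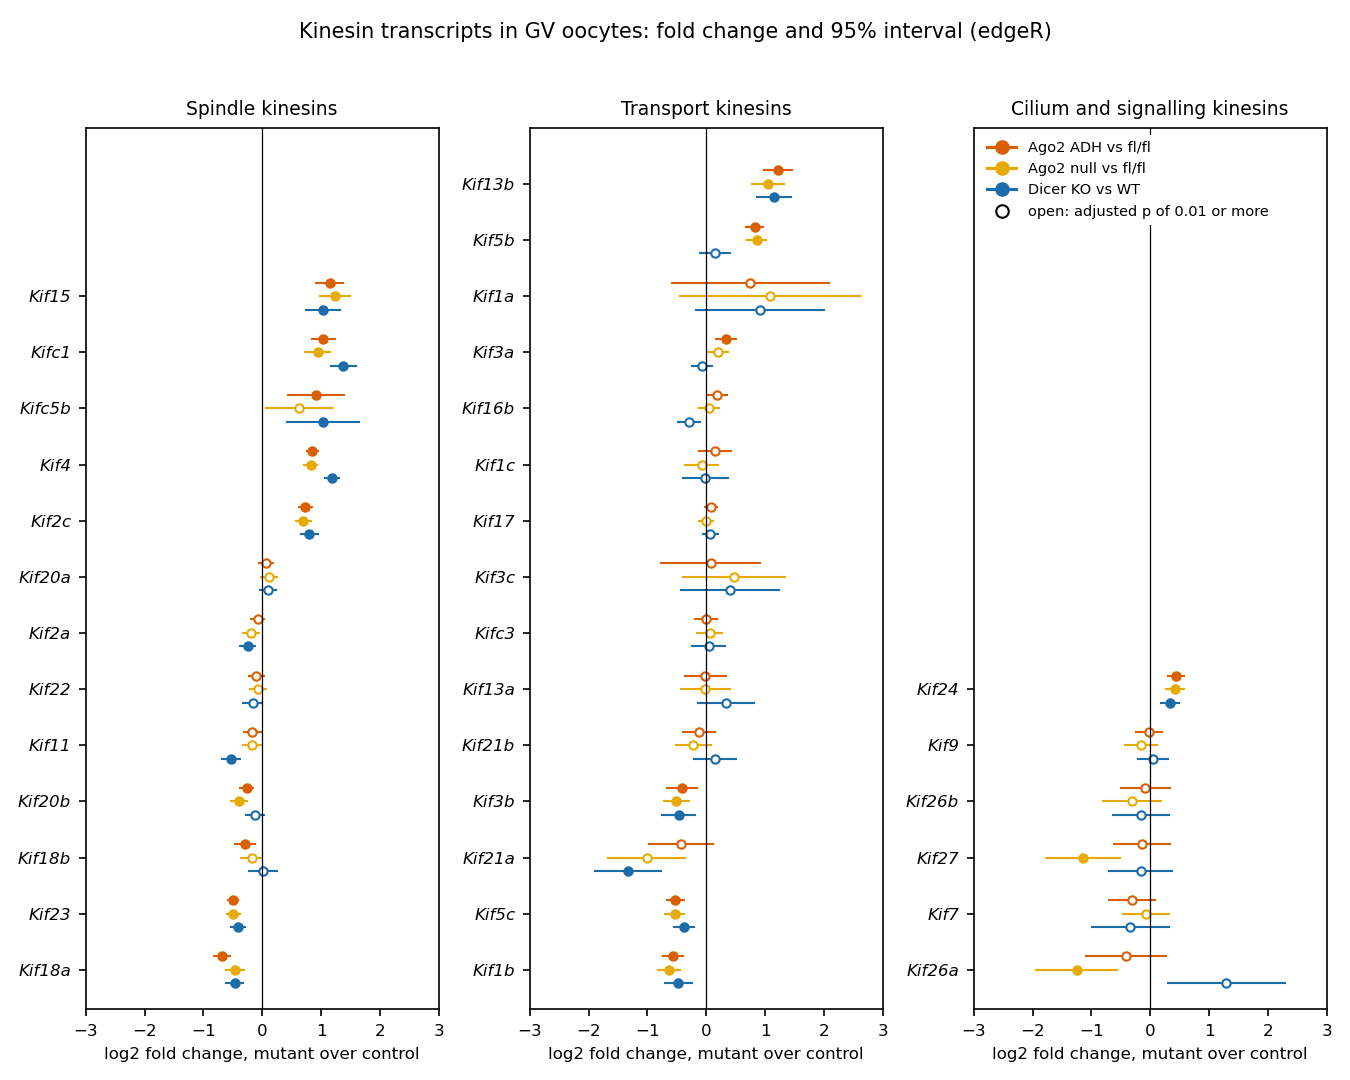
Log2 fold change of each kinesin transcript tested in all 3 comparisons (x axis, mutant over control), with points for Ago2 ADH, Ago2 null and Dicer KO and bars for 95% intervals from edgeR; filled points passed an adjusted p of 0.01. Kif4, Kif2c, Kifc1 and Kif15 lie right of 0 in the spindle panel with all intervals clear of it, Kif23 and Kif18a lie left of it, and Kif5b lies at 0.82 and 0.86 in the Ago2 mutants and at 0.15 in Dicer KO.

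Levels were compared between genes as normalised CPM per kilobase of transcript (CPM/kb), which moves with the length of the transcript that stands for a gene. Kif23, the motor subunit of centralspindlin, was the most abundant kinesin in both controls, at 167 CPM/kb in fl/fl and 176 in WT oocytes, and Kif4 was next at 84.2 and 94.5. In all 3 mutants this order was turned round, with Kif4 at 147, 145 and 214 CPM/kb and Kif23 at 114, 115 and 132. The libraries of the 2 genes did not overlap in any group. Kif17, a kinesin-2 motor known from dendrites and cilia, was the most abundant of the transport kinesins in every group, at 64.5, 66.0, 62.6, 44.7 and 46.7 CPM/kb in fl/fl, ADH, null, WT and KO. Kif2c passed Kif22 in the Ago2 mutants, since the levels of Kif22 and Kif2c were 44.3 and 37.7 CPM/kb in fl/fl and 40.1 and 60.7 in ADH oocytes. In WT oocytes Kif2c was already the higher, at 45.4 against 36.3 CPM/kb for Kif22, so this order differed between the controls. Kif2a, Kif20b and Kif20a lay close together in fl/fl oocytes, in CPM/kb from 28.8 to 29.8, and neighbours in that order overlapped between libraries. The conventional heavy chains Kif5c and Kif5b stood at 6.66 and 5.78 CPM/kb in fl/fl and at 4.47 and 9.89 in ADH oocytes, so the higher of the pair changed there. In WT oocytes they stood at 9.90 and 16.5, so Kif5b was already the higher in that control. The neuronal Kif5a stood at 0.0136 in fl/fl.

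**Figure D2:**
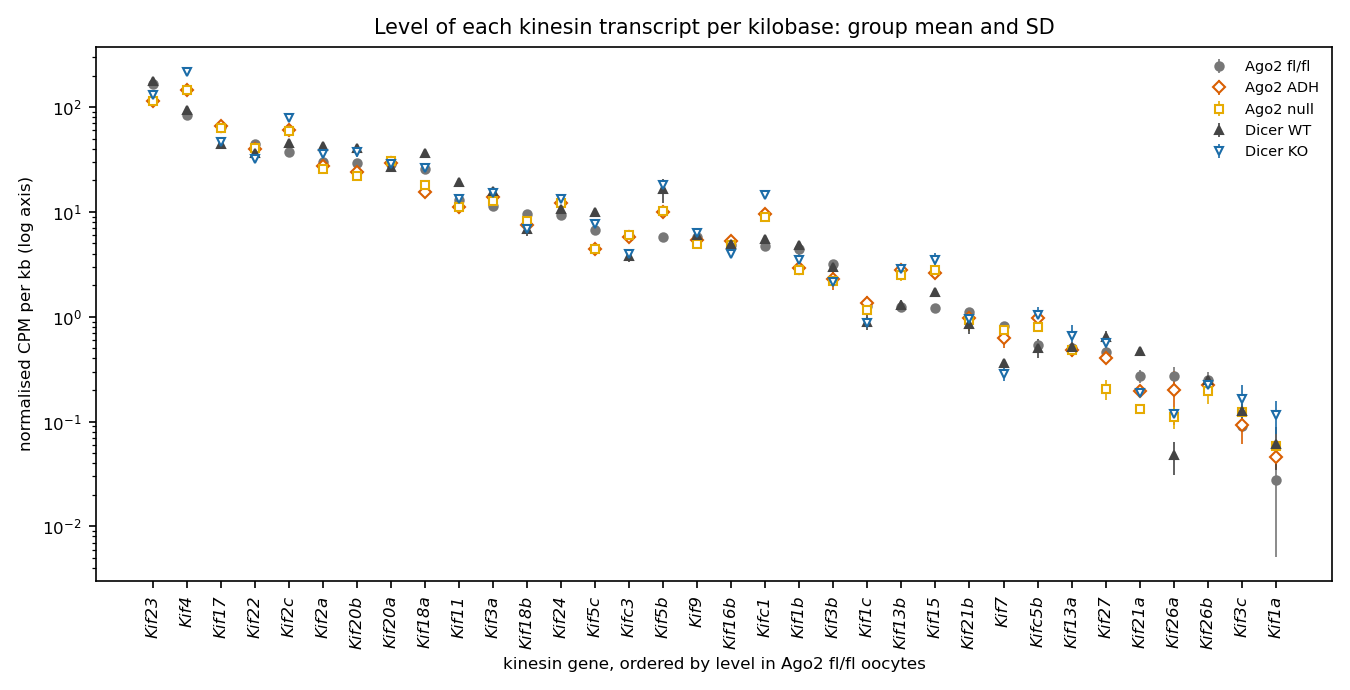
Level of each kinesin transcript tested in all 3 comparisons, as normalised CPM per kilobase on a log axis, with the group mean and SD for the 5 groups; genes are ordered by the level in Ago2 fl/fl oocytes. Kif23 leads in both controls at 167 and 176, Kif4 leads in the 3 mutants at 147, 145 and 214, and the lowest gene shown, Kif1a, stands at 0.0278 in fl/fl.

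Kif4 (chrX:100626065-100727271 in GRCm38) encodes the chromokinesin that organises the spindle midzone together with PRC1. It stood at 411, 419 and 428 CPM in the fl/fl libraries, 712, 739 and 745 in ADH, 745 and 699.6 in null, 458, 456 and 498 in WT and 1095, 1069.9 and 1037 in KO. Every mutant library lay above every control library, and the KO libraries lay above those of ADH and null. The log2 fold change was 0.85 (SE 0.0446, adjusted p = 9.04e-12) in ADH, 0.82 (SE 0.0536, adjusted p = 2.00e-09) in null and 1.19 (SE 0.0595, adjusted p = 6.25e-12) in KO oocytes by edgeR. Kif4 lies on the opposite strand to Pdzd11, and 15.9% of the 50-base windows of its transcript also occur in Pdzd11 in antisense, and without strand a read there was counted for both genes. Pdzd11 had raw counts of 4161, 4056 and 3572 in fl/fl, 5457, 5064 and 4120 in ADH, 5609 and 5345 in null, 2731, 2801 and 3191 in WT and 4096, 3999 and 4988 in KO libraries. Kif4 had 23780, 24762 and 22395, 38807, 40287 and 32191, 41608 and 36914, 17714, 18341 and 20893 and 33953, 30243 and 36535 in the same order. Pdzd11 itself rose, with log2 fold changes of 0.51 (SE 0.0563), 0.57 (SE 0.0630) and 0.95 (SE 0.0658) in ADH, null and KO oocytes, called in each. With all Pdzd11 counts taken off those of Kif4, the fold changes of Kif4 were 0.91 (SE 0.0468), 0.87 (SE 0.0559) and 1.23 (SE 0.0605), none smaller than before, and each was called by edgeR.

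Kifc1 (chr17:33875664-33890633), the minus-end motor of pole focusing, stood at 11.4, 11.0 and 11.3 CPM in the fl/fl libraries, 20.7, 24.7 and 21.6 in ADH, 21.1 and 20.9 in null, 12.5, 13.0 and 13.7 in WT and 36.6, 32.7 and 32.3 in KO. Mutant and control libraries did not overlap, and no library of ADH or null reached the lowest KO library. Its log2 fold change was 1.04 (SE 0.0946, adjusted p = 3.04e-08) in ADH, 0.94 (SE 0.0993, adjusted p = 7.51e-07) in null and 1.38 (SE 0.102, adjusted p = 2.22e-09) in KO oocytes by edgeR, the largest of the spindle kinesins in KO. Kifc5b (chr17:26917091-26932579), a near copy of Kifc1 on the same chromosome, was lower, at 1.24, 1.52 and 1.45 CPM in the fl/fl libraries, 2.85, 2.68 and 2.20 in ADH, 1.95 and 2.29 in null, 1.03, 1.47 and 1.50 in WT and 3.03, 3.08 and 2.13 in KO. Its mutant libraries were above its control libraries in all 3 comparisons. It rose by 0.92 (SE 0.226, adjusted p = 0.00217) in ADH and 1.04 (SE 0.292, adjusted p = 0.00683) in KO oocytes, and the value in null oocytes, 0.63 (SE 0.264, adjusted p = 0.0585), did not pass in edgeR. The call for Kifc5b in ADH was lost without ADH replicate 1 (log2 fold change 0.83) or fl/fl replicate 1 (0.83), and in KO without any of 5 of the 6 libraries, all but KO replicate 3, with values of 0.89 to 1.13, and with the replicate block in edgeR (1.04, adjusted p = 0.0162).

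Kifc1 and Kifc5b share 45.8% of the 50-base windows of Kifc1, and their coding sequences are 98.7% identical over aligned bases, with 27 differing. The 120 coding bases with the most differences, counted from the first base of the start codon (32 to 151 of Kifc1 and 29 to 148 of Kifc5b, GENCODE M21 transcripts of GRCm38), are shown to let a reader see what separates their reads. Capitals mark the 6 differing bases.
Kifc1: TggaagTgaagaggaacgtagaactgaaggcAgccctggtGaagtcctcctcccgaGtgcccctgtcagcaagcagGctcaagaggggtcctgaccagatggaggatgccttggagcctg
Kifc5b: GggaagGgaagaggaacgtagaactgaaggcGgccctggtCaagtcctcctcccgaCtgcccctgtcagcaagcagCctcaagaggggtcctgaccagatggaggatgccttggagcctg
A read that spans none of the differing bases aligns to both genes and is tallied apart, so the counts of both come from part of their sequence and are uncertain as levels. With the counts of both genes summed, the log2 fold changes were 1.03 (SE 0.0900) in ADH, 0.91 (SE 0.0956) in null and 1.35 (SE 0.100) in KO oocytes, all called.

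Kif15 (chr9:122951081-123018733), a plus-end motor that helps to keep the spindle bipolar, was scarce in the controls. It stood at 6.17, 5.57 and 5.97 CPM in the fl/fl libraries, 12.7, 12.7 and 12.5 in ADH, 13.7 and 13.3 in null, 8.64, 7.77 and 8.61 in WT and 19.6, 14.5 and 16.8 in KO. All mutant libraries exceeded all libraries of their controls, by log2 fold changes of 1.14 (SE 0.111, adjusted p = 7.26e-08), 1.24 (SE 0.122, adjusted p = 3.49e-07) and 1.03 (SE 0.139, adjusted p = 6.59e-06) in ADH, null and KO oocytes. KIF11, the motor whose work KIF15 can take over, did not rise. Kif11 (chr19:37376382-37421863) stood at 60.2, 58.5 and 68.0 CPM in the fl/fl libraries, 54.6, 50.9 and 55.6 in ADH, 54.2 and 53.7 in null, 95.1, 85.2 and 95.9 in WT and 62.9, 61.3 and 66.1 in KO. It fell in KO oocytes by edgeR, at -0.53 (SE 0.0718, adjusted p = 6.60e-06), while the values of -0.17 (SE 0.0704, adjusted p = 0.0558) in ADH and -0.17 (SE 0.0776, adjusted p = 0.0862) in null oocytes did not pass. The KO and WT libraries of Kif11 did not overlap. Per kilobase, Kif11 stood at 12.9 and Kif15 at 1.22 CPM/kb in fl/fl, and at 13.2 and 3.50 in KO oocytes.

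The Kif2 depolymerases did not move together. Kif2c (chr4:117159633-117182624), which shortens microtubules at centromeres, stood at 107, 112 and 103 CPM in the fl/fl libraries, 164, 182 and 171 in ADH, 172 and 166 in null, 117, 134 and 136 in WT and 223, 221 and 228 in KO. Mutant and control libraries were separate in each comparison, with log2 fold changes of 0.73 (SE 0.0537, adjusted p = 1.39e-09), 0.70 (SE 0.0603, adjusted p = 7.00e-08) and 0.80 (SE 0.0662, adjusted p = 1.02e-08) in ADH, null and KO by edgeR. Kif2a (chr13:106958996-107022355), the depolymerase of spindle poles, stood at 103, 108 and 105 CPM in the fl/fl libraries, 94.8, 94.1 and 101 in ADH, 93.2 and 87.3 in null, 152, 145 and 152 in WT and 127, 127 and 123 in KO. The libraries of each mutant lay below those of its control. Kif2a fell in KO oocytes, at -0.25 (SE 0.0603, adjusted p = 0.00252), a call lost without KO replicate 2 (log2 fold change -0.25, adjusted p = 0.0113) or WT replicate 1 (-0.24, adjusted p = 0.0112), and its values in ADH, -0.08 (SE 0.0551), and null, -0.18 (SE 0.0638), did not pass. With all 5 groups in 1 fit the null value of Kif2a passed in edgeR (-0.22, adjusted p = 0.00637). Kif2b had 9 reads in 1 fl/fl library and none in the other 13 libraries.

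**Figure D3:**
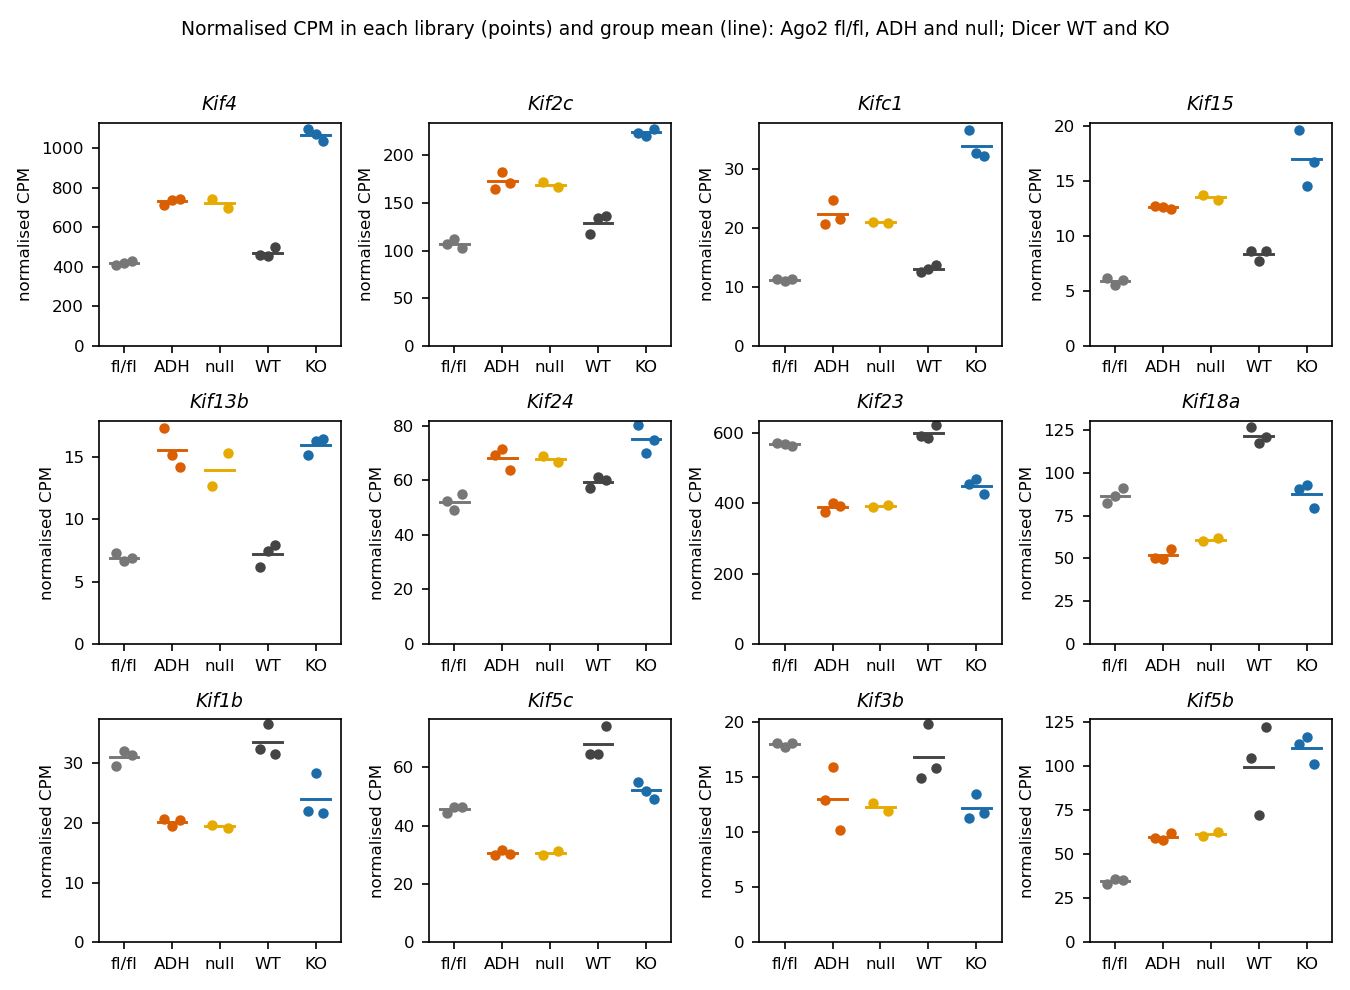
Normalised CPM (y axes from 0) in each library for the kinesins called in the same direction in all 3 comparisons and for Kif5b, with a point for each library and a line for the group mean. Kif4 runs from 411 to 428 in fl/fl and 712 to 745 in ADH libraries, Kif23 from 563 to 571 and 374 to 401, and the Dicer WT libraries of Kif5b spread from 72.1 to 122.

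Kif23 (chr9:61917277-61946810) was the most abundant of the spindle kinesins that fell. The values were 571, 568 and 563 CPM in the fl/fl libraries, 374, 401 and 390.4 in ADH, 388 and 395 in null, 591, 585 and 621 in WT and 453, 467 and 425 in KO. The highest mutant library was below the lowest control library in each comparison. Its log2 fold change was -0.50 (SE 0.0442, adjusted p = 2.19e-08) in ADH, -0.50 (SE 0.0524, adjusted p = 7.53e-07) in null and -0.41 (SE 0.0590, adjusted p = 1.37e-05) in KO oocytes by edgeR. Kif18a (chr2:109280738-109341749), which limits chromosome movement and microtubule length in metaphase, stood at 82.3, 86.5 and 91.0 CPM in the fl/fl libraries, 50.6, 49.9 and 55.7 in ADH, 60.2 and 61.8 in null, 127, 118 and 121 in WT and 90.4, 92.9 and 79.7 in KO. Here too no mutant library reached a library of its own control. The log2 fold changes were -0.69 (SE 0.0658, adjusted p = 6.13e-08), -0.47 (SE 0.0699, adjusted p = 3.64e-05) and -0.47 (SE 0.0701, adjusted p = 2.18e-05) by edgeR. Its relative Kif18b (chr11:102905518-102925134), a shortener of astral microtubules, fell in ADH oocytes, at -0.29 (SE 0.0794, adjusted p = 0.00478). That call was lost without any of 4 libraries (ADH replicates 2 and 3, fl/fl replicates 2 and 3), where the log2 fold change was -0.31 to -0.25, and Kif18b gave -0.18 (SE 0.0841) in null and 0.01 (SE 0.115) in KO oocytes, neither called.

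Kif20b (chr19:34922335-34975750), a motor of the midzone and of abscission, fell in both Ago2 mutants, at -0.27 (SE 0.0543, adjusted p = 4.57e-04) in ADH and -0.40 (SE 0.0604, adjusted p = 4.49e-05) in null oocytes by edgeR, from 162, 172 and 161 CPM in fl/fl to 129, 129 and 140.1 in ADH and 123 and 121 in null libraries. In KO oocytes its value of -0.12 (SE 0.0730, adjusted p = 0.209) did not pass. Kif22 (chr7:127027729-127042467), the motor of the polar ejection force on chromosome arms, stood at 97.0, 92.0 and 92.2 CPM in the fl/fl libraries, 77.9, 93.4 and 82.9 in ADH, 86.0 and 87.1 in null, 72.0, 81.2 and 77.2 in WT and 71.0, 70.7 and 63.5 in KO. ADH overlapped fl/fl, null lay below fl/fl and KO lay below WT. Its log2 fold changes of -0.10 (SE 0.0621, adjusted p = 0.196), -0.08 (SE 0.0629, adjusted p = 0.341) and -0.16 (SE 0.0746, adjusted p = 0.0841) in ADH, null and KO oocytes did not pass, with 95% intervals of -0.23 to 0.03, -0.21 to 0.06 and -0.32 to -0.01. Kif20a, a motor of cytokinesis, gave 0.07 (SE 0.0570), 0.12 (SE 0.0655) and 0.10 (SE 0.0657), none called, with intervals that reached no further than 0.25. Of its 50-base windows 31.2% also occur in antisense in Cdc23, which had 4400, 4397 and 3978 counts in fl/fl against 5806, 6225 and 5818 for Kif20a. With all Cdc23 counts taken off, the values of Kif20a were 0.18 (SE 0.102), 0.03 (SE 0.119) and 0.21 (SE 0.0980), none called by edgeR. The errors were wider, so the bound of 0.25 holds for the full counts only.

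The promoters of spindle kinesins called one way in all 3 comparisons are shown, and those of the other kinesins called so are not. RefSeq windows of 300 bases, 250 before the transcription start to 50 after it (GRCm38.p6), matched 32 of the 40 kinesins, and the first window listed was taken. Each was searched on both strands for CCAAT, the box of many cell cycle promoters, and for TTTGAA, the core of the cell cycle genes homology region (CHR), and their reverse complements. In the windows shown no match overlaps another. The CHR letters were present in 10 of 13 spindle kinesin windows (76.9%), in 0 of 11 transport kinesin windows and in 18.1% of the 27025 windows of all genes. CCAAT was present in 8 of the 13 (61.5%), 3 of the 11 (27.3%) and 37.9%. Among the spindle kinesins that rose, Kif15, Kif4, Kifc1 and Kif2c had CHR letters, and of those that fell Kif23 had them and Kif18a had neither string. Spindle kinesins not called in all 3 had them too (Kif11, Kif18b, Kif20b, Kif22 and Kifc5b) or lacked them (Kif2a and Kif2b). Outside the spindle list, Kif24, Kif1b, Kif5c and Kif3b were called one way in all 3 and had no CHR letters. No window was matched for Kif13b. A link of these strings to the changes was not tested. The window listed for Kif2c begins 3852 bases away from the annotated start of its gene and is not shown, though it is counted in the 10 of 13. This distance was looked up only for the spindle kinesins called one way in all 3 comparisons. The other windows in these shares were not checked for it. Of the other 5 windows, 220 bases before to 30 after the start follow, in capitals where they match either string.
Kif4, chrX:100625845-100626094, plus strand: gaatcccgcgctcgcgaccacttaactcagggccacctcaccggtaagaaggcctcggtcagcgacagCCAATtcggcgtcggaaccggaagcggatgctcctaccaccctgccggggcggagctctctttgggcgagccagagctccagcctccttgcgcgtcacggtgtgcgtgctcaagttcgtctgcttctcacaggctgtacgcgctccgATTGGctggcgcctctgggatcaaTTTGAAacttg
Kifc1, chr17:33890604-33890853, minus strand: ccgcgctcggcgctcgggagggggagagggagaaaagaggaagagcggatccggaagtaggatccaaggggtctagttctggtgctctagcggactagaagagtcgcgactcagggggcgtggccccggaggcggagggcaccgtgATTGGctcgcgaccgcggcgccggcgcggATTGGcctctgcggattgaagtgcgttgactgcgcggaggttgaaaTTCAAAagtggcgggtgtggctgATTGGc
Kif15, chr9:122950861-122951110, plus strand: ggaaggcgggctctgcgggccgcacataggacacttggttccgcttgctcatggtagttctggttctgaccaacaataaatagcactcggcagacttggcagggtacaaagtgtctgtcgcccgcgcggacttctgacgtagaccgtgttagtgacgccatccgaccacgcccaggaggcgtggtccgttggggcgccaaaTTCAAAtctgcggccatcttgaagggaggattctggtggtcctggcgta
Kif23, chr9:61946770-61947019, minus strand: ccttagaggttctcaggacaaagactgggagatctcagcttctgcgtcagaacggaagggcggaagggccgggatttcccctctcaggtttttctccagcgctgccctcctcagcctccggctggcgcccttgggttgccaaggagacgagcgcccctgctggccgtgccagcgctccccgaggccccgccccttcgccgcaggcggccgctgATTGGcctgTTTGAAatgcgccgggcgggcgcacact
Kif18a, chr2:109280518-109280767, plus strand: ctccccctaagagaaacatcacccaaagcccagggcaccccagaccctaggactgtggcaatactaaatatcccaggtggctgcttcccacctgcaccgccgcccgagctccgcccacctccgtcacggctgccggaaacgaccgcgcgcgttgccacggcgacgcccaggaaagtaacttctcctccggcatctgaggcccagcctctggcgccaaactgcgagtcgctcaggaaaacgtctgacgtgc
The second CHR match of Kif15 lies at base -234, outside the stretch shown. In Kif4 the CHR letters start at base 20 after the start, in Kifc1 at base 2 and in Kif23 at base 3, so a match of this kind was found on both sides of the change in level.

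Among the transport kinesins, Kif13b (chr14:64652492-64809618), a vesicle motor, was the 1 gene that rose in all 3 comparisons. Its libraries read 7.28, 6.64 and 6.87 CPM in the fl/fl libraries, 17.3, 15.2 and 14.2 in ADH, 12.7 and 15.3 in null, 6.18, 7.44 and 7.94 in WT and 15.2, 16.2 and 16.4 in KO. No mutant library overlapped a control library, and the log2 fold changes were 1.22 (SE 0.111, adjusted p = 3.21e-08), 1.05 (SE 0.126, adjusted p = 3.16e-06) and 1.15 (SE 0.139, adjusted p = 1.64e-06) in ADH, null and KO. Its relative Kif13a stood at 2.98 to 5.19 CPM over all libraries and gave -0.01 (SE 0.169), -0.02 (SE 0.194) and 0.34 (SE 0.228), none called.

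The conventional kinesin heavy chains moved in different ways. Kif5b (chr18:6201005-6241524), the heavy chain made in most tissues, stood at 32.8, 36.1 and 35.6 CPM in the fl/fl libraries, 59.0, 57.9 and 62.1 in ADH, 60.3 and 62.6 in null, 105, 72.1 and 122 in WT and 112, 116 and 101 in KO. In ADH and null oocytes every library was above the fl/fl libraries, at 0.82 (SE 0.0681, adjusted p = 8.27e-09) and 0.86 (SE 0.0749, adjusted p = 7.79e-08). The KO libraries lay within the range of the WT libraries, of which replicate 2 was low, and the log2 fold change of 0.15 (SE 0.124, adjusted p = 0.349) did not pass in edgeR. Without WT replicate 2 that value of Kif5b was -0.05, so its sign rested on this library. Kif5c (chr2:49619286-49774778), known as a neuronal heavy chain, stood at 44.3, 46.3 and 46.5 CPM in the fl/fl libraries, 29.9, 31.8 and 30.3 in ADH, 29.9 and 31.4 in null, 64.7, 64.6 and 74.3 in WT and 55.2, 52.0 and 49.1 in KO. Its mutant libraries were all below those of their controls, and it fell with log2 fold changes of -0.53 (SE 0.0676, adjusted p = 2.68e-06), -0.54 (SE 0.0773, adjusted p = 2.41e-05) and -0.38 (SE 0.0799, adjusted p = 7.50e-04). Kif5a had 0.516 CPM or less in every library and was not tested.

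The subunits of heterotrimeric kinesin-2, which drives transport within cilia, also parted. Kif3a (chr11:53565701-53604248) stood at 34.9, 34.5 and 39.5 CPM in the fl/fl libraries, 42.3, 41.3 and 48.9 in ADH, 42.5 and 38.3 in null, 55.6, 49.1 and 47.1 in WT and 47.3, 49.6 and 47.5 in KO. All ADH libraries exceeded the fl/fl libraries, while null overlapped fl/fl and KO overlapped WT. Kif3a rose in ADH oocytes, at 0.33 (SE 0.0817, adjusted p = 0.00231), a call lost without ADH replicate 3 or fl/fl replicates 1 or 2 (log2 fold change 0.24 to 0.30), and its null and KO values, 0.20 (SE 0.0855) and -0.07 (SE 0.0808), did not pass. Kif3b (chr2:153291395-153333390) stood at 18.1, 17.8 and 18.1 CPM in the fl/fl libraries, 12.9, 15.9 and 10.2 in ADH, 12.7 and 11.9 in null, 14.9, 19.8 and 15.8 in WT and 11.3, 13.5 and 11.7 in KO. Mutant and control libraries were apart in each comparison, and Kif3b fell by edgeR, at -0.42 (SE 0.120, adjusted p = 0.00705), -0.51 (SE 0.102, adjusted p = 5.70e-04) and -0.47 (SE 0.134, adjusted p = 0.00819). The ADH call was lost without any of 5 of the 6 libraries, all but ADH replicate 2 (-0.42 to -0.28), and the KO call without KO replicates 1 or 3 or WT replicates 2 or 3 (-0.51 to -0.34). Kif3c stood at 0.393 to 1.39 CPM, and its values of 0.08 (SE 0.401), 0.47 (SE 0.412) and 0.40 (SE 0.397) did not pass. Kif17 stood at 219, 231 and 218 CPM in the fl/fl libraries, 219, 245 and 220.3 in ADH, 221 and 211 in null, 153, 151 and 158 in WT and 165, 166 and 153 in KO. Each mutant overlapped its control. Its log2 fold change was 0.08 in ADH, 0.00 in null and 0.07 in KO oocytes, with 95% intervals of -0.03 to 0.19, -0.13 to 0.12 and -0.06 to 0.20.

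Kif1b (chr4:149176319-149307773), a carrier of mitochondria and vesicles, is represented by NM_008441, which stood at 29.5, 32.0 and 31.4 CPM in the fl/fl libraries, 20.6, 19.5 and 20.5 in ADH, 19.7 and 19.2 in null, 32.5, 36.5 and 31.6 in WT and 22.0, 28.4 and 21.8 in KO. That transcript was lower in every mutant library than in any control library, with log2 fold changes of -0.57 (SE 0.0792, adjusted p = 7.35e-06), -0.63 (SE 0.0880, adjusted p = 1.68e-05) and -0.48 (SE 0.109, adjusted p = 0.00147) in ADH, null and KO by edgeR. The KO call was lost without WT replicate 2 (-0.42, adjusted p = 0.0131). A second Kif1b transcript, NM_207682, gave -0.01 (SE 0.0997) in ADH and -0.16 (SE 0.111) in null oocytes, neither called, and -0.46 (SE 0.120, adjusted p = 0.00380) in KO oocytes, called, so in the Ago2 mutants the call for Kif1b depended on the transcript counted. Kif21a (chr15:90933275-91050382), which restrains microtubule growth, stood at 1.64, 1.52 and 1.99 CPM in the fl/fl libraries, 1.21, 1.12 and 1.36 in ADH, 0.859 and 0.796 in null, 3.13, 3.09 and 2.74 in WT and 1.16, 1.27 and 1.11 in KO. Mutant libraries were below control libraries in all 3 comparisons, and the log2 fold change was called in KO oocytes, at -1.33 (SE 0.270, adjusted p = 4.94e-04), but not at -0.43 (SE 0.259, adjusted p = 0.171) in ADH or -1.01 (SE 0.310, adjusted p = 0.0126) in null oocytes. The null value of Kif21a passed in edgeR with all 5 groups in 1 fit (-1.04, adjusted p = 0.00440) and with no filter on low counts (-1.02, adjusted p = 0.00740). These values rested on 36 to 124 reads a library. The endosome motor Kif16b gave 0.19 (SE 0.0758, adjusted p = 0.0454), 0.05 (SE 0.0806, adjusted p = 0.66) and -0.29 (SE 0.0913, adjusted p = 0.0141), none called. The KO value of Kif16b passed without KO replicate 3 (-0.34, adjusted p = 0.00992), with DESeq2 (adjusted p = 0.00932) and in edgeR with all 5 groups in 1 fit (adjusted p = 0.00492). Kif1a, Kif1c, Kif21b and Kifc3 were called in no comparison, and Kifc2, at 0.286 CPM or less in every library, was tested against fl/fl in null oocytes alone, where it was not called (1.71, SE 0.778).

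Of the cilium and signalling kinesins, Kif24 (chr4:41389964-41464919), a depolymerase of mother centrioles, rose throughout, from 52.5, 48.9 and 54.8 CPM in the fl/fl libraries, 69.1, 71.5 and 63.8 in ADH, 68.9 and 66.7 in null, 57.3, 61.3 and 60.0 in WT and 80.2, 70.0 and 74.9 in KO. All mutant libraries lay above those of their controls, with log2 fold changes of 0.44 (SE 0.0648, adjusted p = 1.61e-05), 0.42 (SE 0.0719, adjusted p = 1.32e-04) and 0.34 (SE 0.0739, adjusted p = 9.49e-04). Kif26a (chr12:112143974-112181747), a kinesin without motor activity, stood at 2.33, 1.80 and 1.49 CPM in the fl/fl libraries, 0.881, 1.03 and 2.22 in ADH, 0.644 and 0.891 in null, 0.207, 0.348 and 0.429 in WT and 0.806, 0.884 and 0.738 in KO. Null libraries were below all fl/fl libraries, and ADH replicate 3 lay within their range. Kif26a fell in null oocytes, at -1.25 (SE 0.327, adjusted p = 0.0045), and the values of -0.41 (SE 0.321, adjusted p = 0.296) in ADH and 1.29 (SE 0.475, adjusted p = 0.0325) in KO oocytes, the latter with KO libraries above WT libraries, did not pass in edgeR. Kif27 (chr13:58284727-58364745), a relative of the Hedgehog regulator Kif7, stood at 2.07, 1.81 and 2.30 CPM in the fl/fl libraries, 1.56, 1.87 and 1.99 in ADH, 0.770 and 1.04 in null, 3.31, 2.46 and 2.74 in WT and 3.06, 1.95 and 2.55 in KO. The null libraries were the lowest of all, and the other mutant groups overlapped their controls. Kif27 fell in null oocytes, at -1.14 (SE 0.296, adjusted p = 0.00414), and gave -0.14 (SE 0.227) and -0.16 (SE 0.254) in ADH and KO oocytes, neither called. Both null calls were lost without null replicate 1 or fl/fl replicate 1, that of Kif26a also without fl/fl replicate 2 and that of Kif27 without fl/fl replicate 3, at -1.27 to -1.03 for Kif26a and -1.14 to -0.93 for Kif27. The call for Kif26a was also lost in edgeR with all 5 groups in 1 fit (-1.28, adjusted p = 0.0130), and that for Kif27 with the replicate block (-1.07, adjusted p = 0.0166). Kif7, Kif9 and Kif26b were called in no comparison, while Kif6 and Kif19a had at most 0.143 CPM in a library and Kif12 had no read in the 14 libraries, which allows up to 0.0515 to 0.102 CPM.

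Catalytically inactive and absent AGO2 were compared directly in the ADH and null libraries. None of 35 kinesins was called by edgeR at the 1% rate, where 0.118% of all genes were called, and none by DESeq2. An unadjusted p under 0.05 in edgeR was found for 2 of the 35 (Kif18a and Kif27). The share of all genes with such a p was not taken, so no excess can be read from these 2. Kif18a was lower in ADH than in null oocytes by a log2 difference of -0.24 (SE 0.0802, adjusted p = 0.31), and Kif27 was higher by 0.98 (SE 0.311, adjusted p = 0.271). Both were named after their values were seen. For Kif4 the difference was 0.01 with a 95% interval of -0.11 to 0.13, for Kif23 -0.02 with -0.14 to 0.10 and for Kif5b -0.05 with -0.21 to 0.11.

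Whether the Ago2 ADH and Dicer KO effects differed was tested as an interaction, since these comparisons share no library. Of 34 kinesins, 1 was called, Kif4, or 2.94%, against 3.74% of all genes. Its rise in ADH was smaller than in KO oocytes by a log2 difference of -0.39 (SE 0.0703, adjusted p = 0.00104), with a 95% interval of -0.53 to -0.24. With the Pdzd11 counts taken off, the difference was -0.37 (SE 0.0735, adjusted p = 0.00234). Kif5b had a larger difference with a wider error, 0.62 (SE 0.161, adjusted p = 0.0166) by edgeR, and did not pass. Without WT replicate 2, whose Kif5b value was the lowest of its group, it was 0.82 (adjusted p = 5.30e-05) and passed, as it did with no filter on low counts (0.63, adjusted p = 3.74e-04). Kif16b gave 0.43 (SE 0.114, adjusted p = 0.0219), Kif26a -1.75 (SE 0.554, adjusted p = 0.0517) and Kif11 0.32 (SE 0.1000, adjusted p = 0.0521), none of which passed, although Kif16b did with DESeq2 (0.46, adjusted p = 0.00227). For Kif2c, Kif15 and Kif13b the 95% intervals of the difference were -0.30 to 0.06, -0.30 to 0.42 and -0.34 to 0.37.

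**Figure D4:**
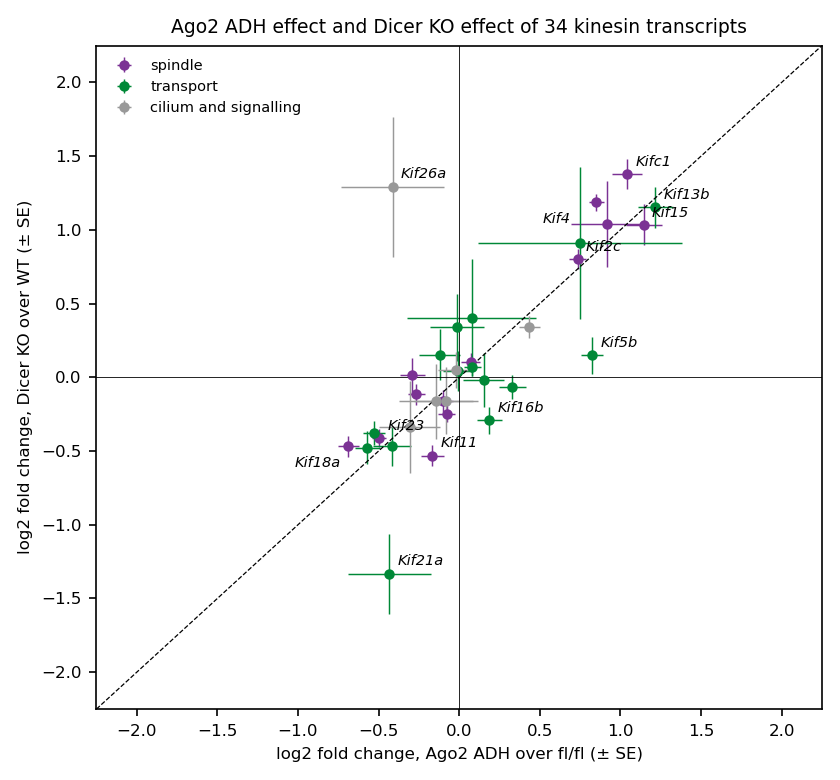
Log2 fold change in Ago2 ADH oocytes over fl/fl (x axis) and in Dicer KO oocytes over WT (y axis) for the 34 kinesins tested in both, coloured by list, with bars for the SE and a dashed line where both are equal. Kif4 lies above the line at 0.85 and 1.19, Kif5b below it at 0.82 and 0.15, and Kif13b and Kif15 close to it.

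The motors' partners were read from a list of 32 genes, 31, 31 and 30 of which were tested. It holds light chains, adaptors, spindle factors that bind kinesins, dynein with dynactin, and Cenpe, itself a kinesin outside the symbol rule. In ADH oocytes 9 rose and 4 fell, in null oocytes 7 rose and 4 fell, and in KO oocytes 8 rose and 1 fell, or 13 of 31, 11 of 31 and 9 of 30 in all, beside the shares of all genes above. Prc1, the midzone bundler that recruits KIF4, rose like Kif4, from a mean of 449 CPM in fl/fl to 959 in ADH and 946 in null, and from 478 in WT to 1485 in KO oocytes. Its log2 fold changes were 1.14 (SE 0.0449), 1.11 (SE 0.0524) and 1.64 (SE 0.0635). Of 31 partners tested it was the 1 called in the interaction (3.23%, against 3.74% of all genes). There the ADH and KO effects of Prc1 differed by -0.55 (SE 0.0755, adjusted p = 4.06e-05) in edgeR. Hmmr, a spindle pole factor, rose by 1.47 (SE 0.0530), 1.34 (SE 0.0624) and 1.52 (SE 0.0620) on the log2 scale. Racgap1, the partner of KIF23 in centralspindlin, did not fall with Kif23. It gave -0.08 (SE 0.0650) and -0.07 (SE 0.0639) in ADH and null oocytes, not called, and rose by 0.28 (SE 0.0737, adjusted p = 0.00401) in KO oocytes. In the interaction Racgap1 gave -0.42 (SE 0.101, adjusted p = 0.0112 in edgeR), just short of the threshold. Trak1, at -0.31 (adjusted p = 0.0285), and Nusap1, at -0.45 (adjusted p = 0.0356), did not pass there in edgeR either.

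Dynein, the main minus-end motor, was represented in the same list. The dynein intermediate chain Dync1i2 rose by 1.36 (SE 0.0491), 1.34 (SE 0.0562) and 1.44 (SE 0.0698), and the heavy chain Dync1h1 by 0.88 (SE 0.0762), 0.91 (SE 0.0883) and 0.70 (SE 0.0956). Dctn3, a dynactin subunit, also rose in all 3. Dync1i1, Dync1li2, Dctn1 and Dctn2 were called in none, with log2 fold changes from -0.31 (Dync1li2 in KO oocytes) to 0.70 (Dync1i1 in KO oocytes). The light intermediate chain Dync1li1 rose in null, 0.89 (SE 0.213, adjusted p = 0.00243), and KO oocytes, 1.04 (SE 0.239, adjusted p = 0.00148), while the value in ADH oocytes, 0.62 (SE 0.195, adjusted p = 0.0115), did not pass. The kinesin-1 adaptor Mapk8ip1 rose in both Ago2 mutants, at 3.01 (SE 0.499) and 2.23 (SE 0.631), from a mean of 0.122 CPM in fl/fl to 0.974 in ADH and 0.569 in null oocytes, close to the floor in the controls. Of the genes on this list that fell, Kntc1, a kinetochore protein, fell in all 3, and Nusap1 and Mapre2 fell in both Ago2 mutants. The kinesin Cenpe also fell in both, at -0.19 (SE 0.0507) in ADH and -0.27 (SE 0.0559) in null oocytes. Its value in KO oocytes, -0.14 (SE 0.0722), was not called. Tpx2, which binds KIF11 and KIF15, was called in none, at 0.12 (SE 0.0480), 0.10 (SE 0.0582) and 0.05 (SE 0.0627).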

How the data were processed

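RNA of 14 libraries, 20 oocytes each, was amplified with the Ovation V2 kit and sequenced. The authors deposited read counts per RefSeq transcript, made by HTSeq (intersection-strict, no strand) from alignments to the mouse genome. The submitters' notes name TopHat2 2.0.7, HTSeq 0.6.1 and DESeq 1.10.0. The tally of ambiguous reads was 0 in every file, and reads in several transcripts were counted for each. Totals of 29380403 to 58285057 counts per library set the precision, and CPM was scaled by TMM factors.

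Groups came from the sample labels. The transcript with the highest mean count stood for a gene. Each comparison was fitted on its own libraries with edgeR 4.0.16 (R 4.3.3; TMM, filterByExpr with a minimum of 10 counts and a total of 15, quasi-likelihood F test), with Benjamini-Hochberg adjustment over all transcripts tested and a threshold of 1%. The interaction used the fl/fl, ADH, WT and KO libraries. The standard error was derived from the F statistic. The code was tested on simulated data. Alternatives were DESeq2 1.42.0, RLE scaling, other filters, a threshold of 5%, 1 transcript per gene, 1 fit of all groups, the replicate block and leaving out each library. Taking off the counts of overlapping genes and summing Kifc1 and Kifc5b were chosen after seeing the data. The values in every library are given for kinesins called with an absolute log2 fold change of at least 1, the 4 highest spindle and the 4 highest transport kinesins per kilobase, and those called between mutants or in the interaction; values of further called members were added. The members and lists were chosen with earlier results of these data known. Gene positions and sequences come from GENCODE M21 and RefSeq annotation of GRCm38. Kif14 and Kif28 were not analysed here.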

Additional observations from a re-analysis of the deposited data

Results flagged for a closer look

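The log2 change of Kif4 in Ago2 ADH oocytes was smaller than in Dicer KO oocytes by a difference of -0.39 in an interaction test (edgeR, adjusted p = 0.00104), with 3 of 3 libraries above every control library in both mutants. No comparison of kinesins uses reads with several alignments. Their tally averaged 57.7% of all tallied counts in ADH and 57.6% in null libraries against 33.7% in fl/fl. It averaged 46.3% in KO against 28.4% in WT libraries. Every mutant library lay above every library of its control. These are not shares of reads, since a read in several transcripts was counted for each.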

How the results depend on the processing

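No called kinesin changed direction under any alternative run. The kinesins called numbered 16 in ADH (13 to 15 with 1 library left out), 15 in null (13 to 15), 15 in KO (12 to 15) and 0 between ADH and null oocytes. The interaction called 1, but 2 with DESeq2 (Kif16b added), 2 with no filter on low counts (Kif5b added), 3 at a threshold of 5% (both added) and 1 to 2 with 1 library left out, the 2 without Dicer WT replicate 2. Same-numbered samples did not deviate together (r of -0.151 to 0.0641 over genes). This cannot settle whether they were collected together, since a shared collection need not show in so few libraries. With the replicate block the counts were 16 in ADH, 14 in null, 14 in KO, 0 between ADH and null and 1 in the interaction. Of 2554 alternative values for 172 single fold changes, 2406 stayed on the same side of the threshold, 35 no longer passed it, 16 newly passed it and 97 changed sign without passing it in either setting. Kinesins under 3 CPM rested on few reads, and changes there were detectable at this depth only when large.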
